A study of Rattus norvegicus with 9 samples.

Results

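The comparison described here sets serum from rats given rotenone for 10 days (EPD, 3 libraries) against control serum (Control, 3 libraries). These are 6 of the 9 small RNA libraries of the series. The other libraries, from animals with a longer exposure, were left out of the fit, and group membership was read from the sample titles. All animals were adult male wild-type Wistar rats assigned at random to their group. EPD rats were injected daily with rotenone into the peritoneum (2 mg per kg) over 10 days, as a model of an early stage of Parkinson's disease. What the Control rats received is not stated, and the treatment label has the same wording for Control and EPD samples. Neither the number of animals behind each library nor any pooling is given, so p-values measure the spread between these libraries. The values are deposited read counts for 567 mature miRNAs, the miRNAs that the comparison covers.

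Rotenone blocks complex I of the mitochondrial respiratory chain and is used in rodents because dopaminergic neurons are sensitive to it. Serum miRNAs come from many sources, among them red cells, platelets and leukocytes, liver, muscle and the vessel wall, and some leave these cells through lysis. A hairpin precursor gives a 5p and a 3p arm, either of which can be loaded into Argonaute, and bases 2 to 8 of the loaded arm, the seed, select the target mRNAs. Clustered hairpins are often transcribed together.

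The sequences below are mature rat miRNAs from RefSeq (assembly GRCr8), written 5′ to 3′ with the seed in capitals. RefSeq entries were matched by name for 513 of the 567 miRNAs, and for 20 of the 21 miRNAs that passed the test without Control 2 (described below). The first set comes from the X chromosome, where 6 hairpins lie within 5.3 kb on the minus strand. It is shown because 8 of its arms passed that test.
miR-322-5p: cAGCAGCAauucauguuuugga
miR-322-3p: aAACAUGAagcgcugcaaca
miR-503-5p: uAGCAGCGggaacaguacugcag
miR-503-3p: gGAGUAUUguuuccgcugccugg
miR-351-5p: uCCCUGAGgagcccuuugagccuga
miR-351-3p: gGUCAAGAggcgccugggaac
miR-542-3p: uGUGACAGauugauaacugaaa
miR-542-5p: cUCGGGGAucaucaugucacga
miR-450a-5p: uUUUGCGAuguguuccuaaugu

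miR-322-5p has the seed of the miR-15/16 family and miR-351-5p that of the miR-125 family. Their relatives from other chromosomes are shown to compare arms that share a seed. miR-503-5p has a seed close to that of the first family.
miR-16-5p: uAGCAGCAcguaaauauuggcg
miR-15b-5p: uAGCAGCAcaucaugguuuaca
miR-195-5p: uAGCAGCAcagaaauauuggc
miR-497-5p: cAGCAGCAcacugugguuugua
miR-125b-5p: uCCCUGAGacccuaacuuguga
miR-125a-5p: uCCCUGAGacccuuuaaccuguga

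The next set holds other arms with lower levels in EPD that the results turn on. The first 5 come from the imprinted Dlk1-Dio3 region on chromosome 6, and miR-199a and miR-214 lie on chromosome 13. No 2 of the 11 share a seed.
miR-127-3p: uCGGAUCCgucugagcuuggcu
miR-379-5p: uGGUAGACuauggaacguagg
miR-411-5p: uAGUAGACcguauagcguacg
miR-431: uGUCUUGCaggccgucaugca
miR-369-5p: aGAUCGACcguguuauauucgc
miR-199a-3p: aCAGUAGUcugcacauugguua
miR-199a-5p: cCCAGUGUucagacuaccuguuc
miR-214-3p: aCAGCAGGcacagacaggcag
miR-149-5p: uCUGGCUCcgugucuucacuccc
miR-181b-5p: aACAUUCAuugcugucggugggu
miR-708-5p: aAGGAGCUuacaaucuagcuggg

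The last set holds the arms with higher levels in EPD (miR-29, miR-223 and miR-187) and liver and muscle miRNAs that differed widely between libraries of 1 group. The 3 miR-29 arms share 1 seed, and so do miR-1-3p, miR-1b and miR-206-3p. Such close relatives differ by few bases, so how the authors' counting divided reads between them is uncertain.
miR-29a-3p: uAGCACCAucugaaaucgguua
miR-29b-3p: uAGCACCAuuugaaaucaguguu
miR-29c-3p: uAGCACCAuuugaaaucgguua
miR-223-3p: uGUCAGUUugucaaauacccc
miR-223-5p: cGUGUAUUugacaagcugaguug
miR-187-3p: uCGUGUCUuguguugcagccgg
miR-122-5p: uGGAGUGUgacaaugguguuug
miR-1-3p: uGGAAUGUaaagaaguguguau
miR-1b: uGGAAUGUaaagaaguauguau
miR-206-3p: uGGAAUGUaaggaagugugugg
miR-133a-3p: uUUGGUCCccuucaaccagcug

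The libraries held 1108167 to 1668807 counts, with overlapping ranges in the groups, and 267 to 331 miRNAs with at least 10 counts. Levels are given as CPM, read counts scaled to a common library size with the TMM factors of the 6 libraries, and 3 counts correspond to 1.66 to 3.66 CPM. Control 2 stood apart. Its 12 liver miRNAs made up 48.2% of its counts, against 6.17% in Control 1, 8.34% in Control 3 and 3.82% to 7.32% in EPD. In serum, release from more cells of a type and more RNA per cell cannot be told apart. The TMM factor of Control 2 was 0.7, and its log2 CPM correlated with Control 1 by 0.92 and with Control 3 by 0.947, while Controls 1 and 3 correlated by 0.984 (301 miRNAs of libraries that share a method). EPD 1 stood apart in its 14 red cell miRNAs, 39.8% of its counts against 7.09% to 22.2% in the other 5 libraries. Of this list, miR-16-5p alone held 30.8% of the counts of EPD 1. Tests are therefore given with Control 2 (3 against 3) and without it (3 against 2), and a value from 1 layout alone is named as such. Both fits share Controls 1 and 3 and all EPD libraries, so they are not independent.

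**Figure D1:**
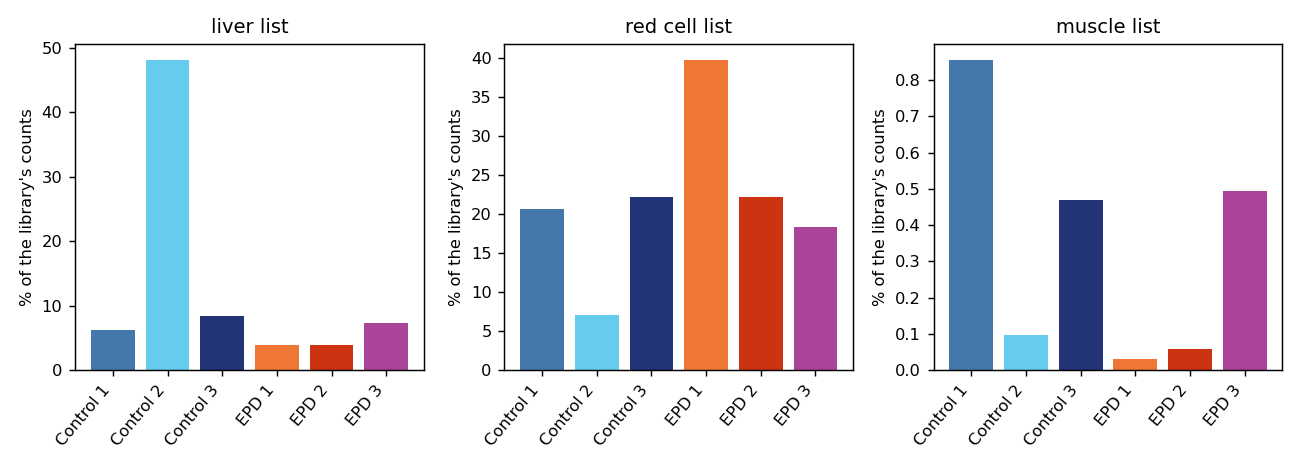
Share of each library's counts (%) held by the miRNAs of the liver, red cell and muscle lists, 1 bar per library, each panel with its own axis from 0. Control 2 reached 48.2% for the liver list, EPD 1 reached 39.8% for the red cell list, and the muscle list ran from 0.0298% in EPD 1 to 0.857% in Control 1.

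In the comparison of 3 EPD with 3 Control libraries, no miRNA passed an adjusted p of 0.05. edgeR's quasi-likelihood test with Benjamini-Hochberg adjustment called 0 of 301 (0%), and the smallest adjusted p was 0.196, shared by miR-542-3p and miR-199a-3p. At an unadjusted p under 0.05 there were 35 miRNAs (11.6%), of which 26 were lower in EPD (8.64%) and 9 higher (2.99%). The groups did not overlap for 42 miRNAs (14.0%), 21 with EPD lower and 21 with EPD higher (6.98% each). DESeq2 on the same counts called 7, all lower in EPD, namely miR-542-3p, miR-199a-3p, miR-122-3p, miR-351-3p, miR-322-3p, miR-335 and miR-351-5p. limma-voom called 0.

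Without Control 2 the same edgeR test called 21 of 338 miRNAs (6.21%), with 18 lower in EPD (5.33%) and 3 higher (0.888%). The lower miRNAs were 8 arms of the X-linked cluster, 5 arms of the Dlk1-Dio3 region, and miR-149-5p, miR-199a-3p, miR-455-5p, miR-181b-5p and miR-708-5p. The higher ones were miR-223-3p, miR-29b-3p and miR-187-3p. At an unadjusted p under 0.05 there were 79 (23.4%), of which 52 were lower (15.4%) and 27 higher (7.99%). Groups did not overlap for 139 of the 338 (41.1%), of which 82 had EPD lower (24.3%) and 57 EPD higher (16.9%).

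Where the omitted library lies bears on these 21 calls. For 18 of them (85.7%) the log2 level of Control 2 was nearer to the EPD mean than to the mean of Controls 1 and 3, against 214 of all 338 tested (63.3%). The 3 exceptions were miR-542-3p, miR-199a-3p and miR-187-3p. Control 2 lay below Controls 1 and 3 for 18 of the 18 lower miRNAs and above both for 3 of the 3 higher ones. The share over all miRNAs tested was not counted here, and the calls were selected for the distance of Controls 1 and 3 from EPD. For 13 of the 21 the groups overlapped once Control 2 was put back. Of the 17 that were tested with it, 17 kept the sign of their log2 fold change and 13 had an unadjusted p under 0.05. miR-450a-5p, miR-411-5p, miR-431 and miR-369-5p were tested only without Control 2, having passed the filter on low counts through the controls.

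**Figure D2:**
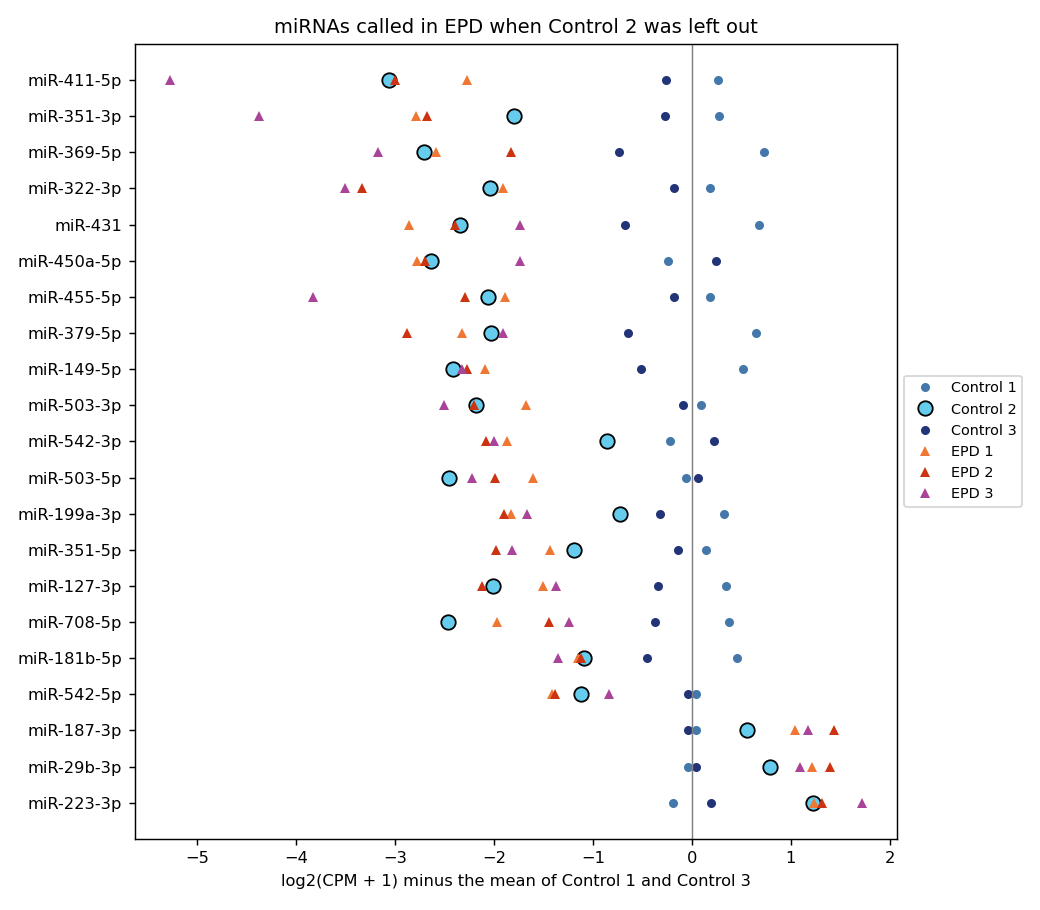
log2(CPM + 1) of each library minus the mean of Control 1 and Control 3, for the 21 miRNAs called without Control 2, with 1 point per library. The large outlined circles are Control 2, which was not used for these calls and lay nearer to EPD than to the other controls for 18 of the 21.

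The calls also rested on 2 further libraries. Leaving out EPD 2 as well as Control 2 gave 0 calls with edgeR (62 miRNAs at an unadjusted p under 0.05, smallest adjusted p 0.0775), and leaving out Control 1 as well left 1, miR-542-3p. Without Control 3 as well there were 13 calls, of which 12 were among the 21, and without EPD 3 as well 65, which held all 21. Without EPD 1 as well there were again 21, but 13 were shared. The median SD of log2 CPM over 301 miRNAs was 0.255 for Controls 1 and 3, 0.37 for EPD and 0.499 for all 3 controls.

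The group with the most calls was the cluster of miR-322, miR-503, miR-351, miR-542 and miR-450 on the X chromosome, the rodent counterpart of the human cluster of miR-424 and miR-503, known for restraining the cell cycle and for its part in muscle differentiation. All 8 arms tested in 3 against 3 had negative log2 fold changes (median -1.58). Over the 301 miRNAs tested the median was 0.06, with 46.8% negative. Without Control 2 all 9 tested arms were negative (median -1.99), against a median of 0.04 and 47.0% negative over 338 miRNAs. In 3 against 3, edgeR called 0 of the 8. DESeq2 called 4 (miR-542-3p, miR-351-3p, miR-322-3p and miR-351-5p), against 7 of all 301 miRNAs tested. By edgeR, 6 of the 8 were lower at an unadjusted p under 0.05, against 8.64% of all miRNAs tested, and 3 had EPD lower without overlap, against 6.98%. Without Control 2, edgeR called 8 of the 9, against 5.33% of all miRNAs tested, and the exception was miR-322-5p. The median stayed between -1.99 and -1.28 over the alternatives run in 3 against 3, other scalings included, and between -2.26 and -1.84 in those without Control 2. Of the 9 arms, 7 had at least 10 counts in all EPD libraries. The others, miR-351-3p and miR-450a-5p, passed the filter on low counts through the controls, which favours a negative sign. Their part in these counts is a description only, and miR-351-3p is also among the 8 arms tested in 3 against 3.

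miR-542-3p, which has been described as a repressor of survivin, gave the clearest separation. It measured 298 CPM in Control 1, 192 in Control 2 and 408 in Control 3, and 94.6, 81.6 and 86.4 in EPD 1, 2 and 3. All 3 EPD libraries lay below all 3 controls. edgeR gave a log2 fold change of -1.77 (SE 0.38, adjusted p = 0.196) in 3 against 3 and of -1.99 (SE 0.30, adjusted p = 0.00399) without Control 2, a level 3.98-fold lower. Control 2 was nearer to the other controls than to EPD for this arm. Its partner miR-542-5p measured 264, 117 and 248 CPM in the controls and 95.3, 97.7 and 143 in EPD, so Control 2 lay within the EPD range. Its log2 fold change was -0.91 (adjusted p = 0.445, edgeR) with Control 2 and -1.17 (adjusted p = 0.0482) without it.

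miR-351-5p, a rodent miRNA with the miR-125 seed, measured 880, 350 and 726 CPM in Control 1, 2 and 3 and 296, 202 and 226 CPM in EPD. The groups did not overlap, though Control 2 was closer to EPD 1 than to Control 3. edgeR gave a log2 fold change of -1.44 (SE 0.40, adjusted p = 0.316) in 3 against 3 and -1.72 (SE 0.30, adjusted p = 0.0041) without Control 2. miR-351-3p, the less abundant arm, had 73, 10 and 67 counts in the controls and 8, 8 and 2 in EPD. It had the most negative fit of the cluster, with a log2 fold change of -3.02 (SE 0.72, adjusted p = 0.259, edgeR) with Control 2 and -3.39 (SE 0.59, adjusted p = 0.0041) without it.

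For miR-503-5p, Control 1 and Control 3 measured 370 and 403 CPM, but Control 2 measured 69.6 CPM, below the 126, 96.2 and 81.5 CPM of EPD. The log2 fold change therefore went from -1.48 (adjusted p = 0.393, edgeR) with Control 2 to -1.92 (SE 0.30, adjusted p = 0.00399) without it. miR-503-3p measured 246, 50.0 and 217 CPM in the controls and 71.3, 49.3 and 39.9 CPM in EPD, with Control 2 inside the EPD range. Without Control 2 both arms of miR-503 were thus about 4-fold lower, at 3.77-fold and 4.28-fold, while with it their groups overlapped. miR-450a-5p had 23, 2 and 44 counts in the controls and 3, 3 and 9 in EPD, and its log2 fold change without Control 2 was -2.58 (SE 0.62, adjusted p = 0.0288, edgeR).

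The 2 arms of miR-322 gave unlike values. miR-322-3p measured 284, 59.8 and 221 CPM in Control 1, 2 and 3 and 65.6, 23.9 and 21.1 CPM in EPD. Its log2 fold change was -2.35 (SE 0.68, adjusted p = 0.33, edgeR) with Control 2 and -2.76 (SE 0.47, adjusted p = 0.00438) without it. miR-322-5p, the arm with the miR-15/16 seed, measured 853, 708 and 1170 CPM in the controls and 561, 971 and 917 CPM in EPD, and the groups overlapped in both layouts. Its log2 fold change was -0.16 (SE 0.37, adjusted p = 0.867, edgeR) with Control 2 and -0.29 (SE 0.33, adjusted p = 0.646) without it. The ratio of 5p to 3p CPM was 3.01, 11.8 and 5.30 in the controls and 8.55, 40.7 and 43.4 in EPD, so EPD 1 fell within the control range.

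**Figure D3:**
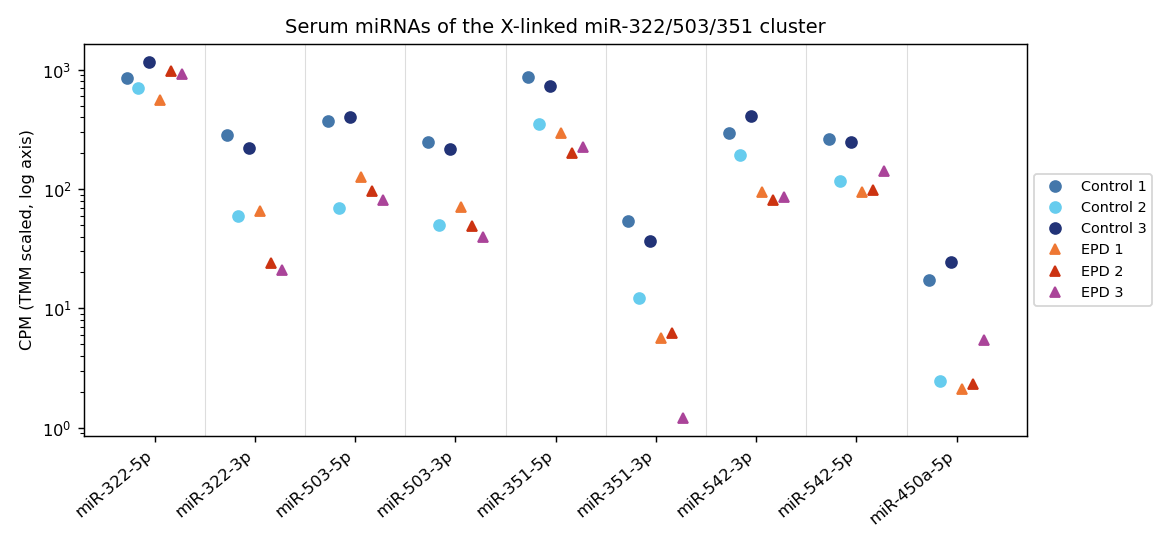
CPM (log axis) of 9 arms of the X-linked cluster, with 1 point per library, circles for Control and triangles for EPD. EPD lay below Controls 1 and 3 for every arm except miR-322-5p, and Control 2 lay within or below the EPD range for 5 of the others (both arms of miR-503, miR-542-5p, miR-450a-5p and miR-322-3p).

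Arms with a shared seed had unlike log2 fold changes. Of the 5 arms with the seed AGCAGCA, 0 were called by edgeR in either layout. Without Control 2 the values were positive for miR-15b-5p (0.75) and miR-16-5p (0.62) and negative for miR-195-5p (-0.82), miR-322-5p (-0.29) and miR-497-5p (-0.07). In 3 against 3 the signs were the same, at 0.81, 0.86, -0.95, -0.16 and -0.61 in that order. Among the 3 with the seed CCCUGAG, all were negative in 3 against 3, where miR-125b-5p had -0.03 (SE 0.28), miR-125a-5p -0.25 (SE 0.40) and miR-351-5p -1.44. Without Control 2, edgeR called miR-351-5p lower (-1.72), while miR-125b-5p (0.02, SE 0.29) and miR-125a-5p (0.20, SE 0.32) were not called, so the signs within this family differed only in that layout. miR-125b-5p was the more abundant by far, at 11285 to 13886 CPM over the 6 libraries against 202 to 880 CPM for miR-351-5p.

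The Dlk1-Dio3 region on chromosome 6 holds the largest miRNA cluster of placental mammals. The miRNAs of this cluster are expressed from the maternal allele, in brain, muscle and mesenchymal cells. Of 46 listed arms in the files, 11 were tested in 3 against 3 and 17 without Control 2. All had negative log2 fold changes, with a median of -1.11 in 3 against 3 and -1.64 without Control 2. Over all miRNAs tested, 46.8% and 47.0% were negative. edgeR called 0 in 3 against 3. Without Control 2, 4 of the 17 on the list passed, against 5.33% of all miRNAs tested called lower. miR-369-5p, the fifth call from the region, was not on the list. Only 6 of the 17 had at least 10 counts in all EPD libraries, so many members were tested because the controls carried them. With no filter on low counts, 41 of the 44 arms tested in 3 against 3 were negative (median -1.24). The median over all 546 miRNAs of that setting was -0.04. Many of the added arms had under 10 counts in every library, so their signs rest on few reads. Without Control 1 the median in 3 against 3 was -0.36, with 10 of 11 negative.

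miR-379-5p, from the start of the cluster, measured 162, 24.4 and 65.2 CPM in Control 1, 2 and 3 and 19.8, 13.1 and 26.6 CPM in EPD. Control 2 lay inside the EPD range. In edgeR its log2 fold change was -2.08 (SE 0.67, adjusted p = 0.347) with Control 2 and -2.48 (SE 0.46, adjusted p = 0.00598) without it. miR-127-3p, which is antisense to the imprinted Rtl1 gene, measured 191, 36.6 and 118 CPM in the controls and 52.2, 33.9 and 57.4 CPM in EPD, again with Control 2 inside the EPD range. Without Control 2 its log2 fold change was -1.67 (SE 0.37, adjusted p = 0.0222, edgeR), and with it -1.27 (adjusted p = 0.444).

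The other calls of the region were chosen for mention after their values were seen and rested on few counts. miR-411-5p had 61, 3 and 57 counts in the controls and 10, 5 and 0 in EPD. miR-431 had 36, 2 and 18 against 2, 3 and 7, and miR-369-5p had 31, 1 and 14 against 2, 4 and 1. Their adjusted p without Control 2 ran from 0.0459 to 0.0497 (edgeR). In each case Control 1 was the highest library, and Control 2 was within the range of EPD.

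Position in the genome was examined over the 28 clusters with at least 3 arms tested, joining hairpins at most 10 kb apart on GRCr8. In 6 of the 28, every tested arm was negative without Control 2, and 3 clusters held at least 2 called arms. Those 3 were the X-linked cluster (8 called of 10 tested, since it also holds miR-450b-3p) and both groups of hairpins of the Dlk1-Dio3 region, with 3 called of 14 and 2 called of 5. Of these 14 and 5 arms, 6 and 4 were tested in 3 against 3, all negative. Of the arms tested only without Control 2, miR-34b-3p and miR-29a-5p passed the filter through EPD and were positive (2.56 and 1.41). In the X-linked cluster, the Dlk1-Dio3 region and the miR-133a cluster such arms, miR-450a-5p and miR-411-5p among them, passed it through Controls 1 and 3. This favours a negative sign, so the counts for these clusters are a description only. The cluster of miR-133a and miR-1 also had all 3 tested arms negative (median -2.78) with 0 called.

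Among vessel wall and fibroblast miRNAs, miR-199a-3p passed without Control 2 and was the most abundant of the lower calls. It is also on the platelet list, and its source in this serum was not tested. miR-199a and miR-214 are made from a transcript antisense to a dynamin gene and are known from fibroblasts and other mesenchymal cells. Reads of miR-199a-3p cannot be assigned to 1 hairpin, because more than 1 gives this arm. It measured 51774, 24987 and 33028 CPM in Control 1, 2 and 3 and 11592, 11045 and 13050 CPM in EPD. The EPD libraries lay close together and below every control. With all 6 libraries edgeR gave a log2 fold change of -1.62 (SE 0.35, adjusted p = 0.196), and -1.81 (SE 0.31, adjusted p = 0.0041) was fitted without Control 2, a level 3.52-fold lower.

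The 5p arm had a smaller log2 fold change, and the difference between arms was not tested. miR-199a-5p measured 349, 361 and 334 CPM in the controls and 196, 198.6 and 248 CPM in EPD, with no overlap and with Control 2 beside the other controls. Its log2 fold change was -0.70 (SE 0.29, adjusted p = 0.398, edgeR) with Control 2 and -0.66 (SE 0.28, adjusted p = 0.179) without it. The ratio of 5p to 3p CPM was 0.00675, 0.0145 and 0.0101 in the controls and 0.0169, 0.018 and 0.019 in EPD. miR-214-3p, chosen for mention after its values were seen, measured 131, 53.7 and 77.4 CPM in the controls and 18.4, 32.3 and 56.2 CPM in EPD, where EPD 3 exceeded Control 2. It did not pass in either layout (adjusted p = 0.393 with Control 2 and 0.0605 without it, edgeR).

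Several other vessel wall miRNAs separated the groups without passing the threshold, and for these Control 2 was on the side of the controls. miR-195-5p measured 731, 812 and 581 CPM in the controls and 338, 435 and 325 CPM in EPD (adjusted p = 0.347 with Control 2 and 0.106 without it, edgeR). miR-99a-5p measured 1050, 760 and 645 CPM in the controls and 366, 444 and 395 CPM in EPD (adjusted p = 0.347 and 0.0551). miR-152-3p, hosted by a coatomer gene, measured 3433, 2342 and 3032 CPM in the controls and 1328, 1732 and 1812 CPM in EPD (adjusted p = 0.353 and 0.0568). Groups did not overlap for these 3 arms. Over the list as a whole, 15 of 17 were negative in 3 against 3 (median -0.67) and 10 of 17 without Control 2 (median -0.09). The share of all miRNAs tested was 46.8% and 47.0%. EPD was lower without overlap for 7 of the 17 in 3 against 3, against 6.98% of all miRNAs tested. Without Control 2, 8 had EPD lower and 3 EPD higher without overlap, against 24.3% and 16.9% of all tested. miR-143-3p of smooth muscle went from -0.75 to -0.33, and miR-145-5p from -0.53 to 0.62.

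Cartilage miRNAs had 4 of 4 arms negative in both layouts, with a median of -0.96 with Control 2 and -1.26 without it. The share of negative values among all miRNAs tested was 46.8% and 47.0%. miR-455-5p, hosted by a fibrillar collagen gene, was the called member. It measured 287, 59.8 and 224 CPM in Control 1, 2 and 3 and 67.8, 50.8 and 16.9 CPM in EPD, so Control 2 lay between EPD libraries. Without Control 2 the log2 fold change was -2.48 (SE 0.49, adjusted p = 0.0143, edgeR), and with it -2.08 (adjusted p = 0.347). miR-140-3p, the abundant cartilage miRNA, measured 45735, 14718 and 44289 CPM in the controls and 27621, 24607 and 18973 CPM in EPD. Here Control 2 was the lowest of the 6 libraries, and the adjusted p was 0.669 with it and 0.0828 without it (edgeR).

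miR-149-5p, hosted within the glypican gene Gpc1, measured 361, 46.4 and 176 CPM in Control 1, 2 and 3 and 58.6, 51.6 and 49.5 CPM in EPD. Control 2 was the lowest library of the 6. Without it the log2 fold change was -2.31 (SE 0.36, adjusted p = 0.00399, edgeR), and with it -1.87 (SE 0.65, adjusted p = 0.347). miR-181b-5p, known from lymphocytes and endothelium, measured 445, 151 and 236 CPM in the controls and 145, 149 and 126 CPM in EPD. Its groups did not overlap, by a margin of 151 to 149 CPM. The adjusted p was 0.412 with Control 2 and 0.0456 without it (edgeR). miR-708-5p, chosen for mention after its values were seen, measured 76.1, 9.76 and 44.8 CPM in the controls and 14.1, 20.8 and 24.2 CPM in EPD. Its adjusted p without Control 2 was 0.0497 (edgeR), and Control 2 was again the lowest library.

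miR-335, hosted by the imprinted gene Mest, had a different layout. It measured 259, 713 and 254 CPM in the controls and 81.9, 97.7 and 150 CPM in EPD, so Control 2 was the library farthest from EPD. Its fitted log2 fold change was -1.89 (SE 0.50, adjusted p = 0.301, edgeR) with Control 2 and -1.20 (SE 0.33, adjusted p = 0.0503) without it. DESeq2 called it in 3 against 3 (adjusted p = 0.0262).

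Of the 21 calls without Control 2, 3 were higher in EPD. Over all miRNAs tested, positive log2 fold changes were the more frequent, 160 of 301 in 3 against 3 and 179 of 338 without Control 2. miR-223-3p, a myeloid miRNA abundant in neutrophils and platelets, measured 12551, 33476 and 16420 CPM in Control 1, 2 and 3 and 33719, 35631 and 47424 CPM in EPD. All EPD libraries were above the controls, but Control 2 differed from EPD 1 by less than EPD 1 did from EPD 2. By edgeR the log2 fold change was 0.90 (SE 0.41, adjusted p = 0.444) in 3 against 3 and 1.44 (SE 0.33, adjusted p = 0.0225) without Control 2, a level 2.72-fold higher. miR-223-5p, from the same hairpin, measured 100, 164 and 128 CPM in the controls and 212, 235 and 289 CPM in EPD. Its adjusted p was 0.363 with Control 2 and 0.0514 without it (edgeR).

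The miR-29 family represses collagens and other matrix genes. miR-29b-3p measured 2573, 4582 and 2728 CPM in Control 1, 2 and 3 and 6130, 6966 and 5640 CPM in EPD. The groups did not overlap, and Control 2 lay between the other controls and EPD. The log2 fold change was 0.92 (SE 0.33, adjusted p = 0.347, edgeR) in 3 against 3 and 1.25 (SE 0.29, adjusted p = 0.0255) without Control 2. miR-29a-3p measured 18808, 57963 and 34826 CPM in the controls and 50860, 64631 and 57867 CPM in EPD, and miR-29c-3p measured 1088, 9750 and 3840 CPM against 5779, 8687 and 7946 CPM. Control 2 lay within the EPD range for miR-29a-3p and above all EPD libraries for miR-29c-3p. Neither arm passed (adjusted p without Control 2 of 0.0659 and 0.104, edgeR). The family median was 0.62 with Control 2 and 1.26 without it, with miR-29c-5p the negative member in both. The value without Control 2 includes miR-29a-5p, which was tested only in that layout.

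miR-187-3p, induced by interleukin-10 in activated monocytes, measured 85.9, 123 and 81.3 CPM in Control 1, 2 and 3 and 173, 228 and 189 CPM in EPD. All EPD libraries were above all controls. The log2 fold change was 1.02 (SE 0.36, adjusted p = 0.347, edgeR) in 3 against 3 and 1.25 (SE 0.32, adjusted p = 0.0456) without Control 2. miR-150-5p, the miRNA of mature lymphocytes, measured 11828, 8905 and 13196 CPM in the controls and 24562, 17632 and 18749 CPM in EPD. The groups did not overlap, and the adjusted p was 0.347 with Control 2 and 0.172 without it (edgeR). Its log2 fold change was 0.84 (SE 0.31) with Control 2 and 0.72 (SE 0.30) without it, and Control 2 was the library farthest from EPD.

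Among the other higher miRNAs that separated the groups in 3 against 3 without passing were miR-1306-5p, miR-664-2-5p, miR-93-5p and miR-130b-3p. miR-1306-5p measured 68.7, 72.0 and 53.6 CPM in the controls and 164, 91.6 and 157 CPM in EPD (adjusted p = 0.347 with Control 2 and 0.0694 without it, edgeR). miR-93-5p, of the miR-25/93 cluster and abundant in red cells, measured 5974, 6187 and 8410 CPM in the controls and 18987, 10058 and 9233 CPM in EPD. Its highest value was in EPD 1, the library richest in red cell miRNAs, and the part of red cell miRNAs in the result was not tested.

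**Figure D4:**
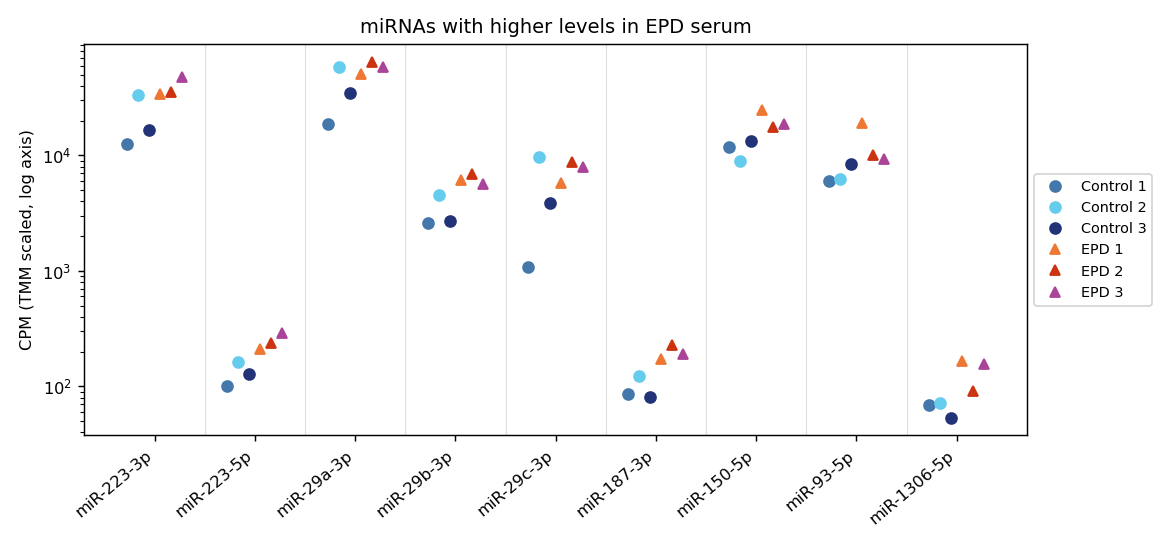
CPM (log axis) of 9 arms with higher levels in EPD, with 1 point per library, circles for Control and triangles for EPD. Every EPD library lay above every control for 7 arms. Control 2 lay within the EPD range for miR-29a-3p and above all EPD libraries for miR-29c-3p.

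Liver miRNAs followed Control 2. miR-122-5p, made almost only by hepatocytes, measured 20429, 632600 and 43777 CPM in Control 1, 2 and 3 and 12633, 11786 and 42877 CPM in EPD. It took 44.3% of the counts of Control 2. Fitted with Control 2 the log2 fold change was -3.37 (SE 1.23, adjusted p = 0.347, edgeR), and without it -0.50 (SE 0.72, adjusted p = 0.738). For the liver list, 9 of 10 were negative in 3 against 3 (median -0.88) and 5 of 10 without Control 2 (median 0.14). Among all miRNAs tested, 46.8% and 47.0% were negative. miR-122-3p, the passenger arm, did not overlap between groups, at 16.9, 4.62 and 13.3 CPM against 30.6, 414 and 60.3 CPM in the controls. Its adjusted p was 0.301 with Control 2 and 0.0503 without it (edgeR), and DESeq2 called it in 3 against 3 (adjusted p = 0.00237).

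Muscle miRNAs divided the EPD libraries. miR-133a-3p measured 1277, 236 and 630 CPM in Control 1, 2 and 3 and 53.6, 56.2 and 298 CPM in EPD 1, 2 and 3. EPD 3 was above Control 2. The log2 fold change was -2.39 (SE 0.82, adjusted p = 0.347, edgeR) in 3 against 3 and -2.78 (SE 0.91, adjusted p = 0.147) without Control 2. miR-1-3p measured 1935, 305 and 1173 CPM in the controls and 76.2, 90.8 and 712 CPM in EPD (adjusted p = 0.464 and 0.35). miR-206-3p, which is specific to skeletal muscle, measured 3789, 804 and 2131 CPM in the controls and 197, 326 and 3734 CPM in EPD, so EPD 3 nearly equalled Control 1. The muscle list had 4 of 5 negative (median -1.76) with Control 2 and 5 of 6 (median -2.24) without it, with 0 called by edgeR in either. Of all miRNAs tested, 46.8% and 47.0% were negative. Of the 6 arms, 4 had at least 10 counts in all EPD libraries. miR-133a-5p, tested only without Control 2, had 12 and 22 counts in Controls 1 and 3 and 1, 2 and 3 in EPD. It passed the filter on low counts through these controls, which favours a negative sign, so the count of 5 of 6 is a description only. Without Control 2, DESeq2 called 3 muscle arms lower and edgeR on library totals 2, and without EPD 3 as well edgeR called 5 of 6. In that order, these settings called 41 of 338, 36 of 338 and 65 of 319 of all miRNAs tested, in either direction. miR-208a-3p, of heart muscle, had at most 1 count in any of the 6 libraries.

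Most red cell miRNAs of the list were highest in EPD 1, but miR-182, miR-183-5p and miR-363-3p were not. miR-451-5p, which makes up much of the miRNA of red cells, measured 564, 445 and 766 CPM in Control 1, 2 and 3 and 3012, 787 and 398 CPM in EPD. miR-486 measured 8684, 6752 and 9126 CPM in the controls and 41055, 9361 and 7787 CPM in EPD, and miR-16-5p measured 136180, 73475 and 151880 CPM against 363270, 152860 and 139090 CPM. In all 3 cases EPD 2 and EPD 3 were within or close to the range of the controls. The list had 11 of 14 positive with Control 2 (median 0.59) and without it (median 0.36), and its median in 3 against 3 was 0.05 once EPD 1 was left out. edgeR called 0 of its arms in either layout, and 2 higher when EPD 3 was left out as well as Control 2. That last setting called 65 of 319 miRNAs in either direction. The 21 calls without Control 2 held no member of this list of 14, where 6.21% of all miRNAs tested were called.

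miRNAs of the brain list ranged from absent to abundant. miR-128-3p, which is enriched in neurons but not confined to them, held most of the list's counts, at 4408, 8782 and 5866 CPM in Control 1, 2 and 3 and 7178, 3770 and 14078 CPM in EPD. Its groups overlapped, with an adjusted p of 0.783 with Control 2 and 0.457 without it (edgeR). miR-124-3p, the defining miRNA of neurons, had 2 counts in EPD 2 and 0 in the other 5 libraries, where 0 counts allow up to 1.66 to 3.66 CPM (counting error only). miR-9a-5p measured 39.6, 20.7 and 24.9 CPM in the controls and 36.0, 14.6 and 6.04 CPM in EPD (adjusted p = 0.751 with Control 2 and 0.513 without it, edgeR). miR-7a-5p, which binds the alpha-synuclein mRNA, measured 622, 533 and 1158 CPM in the controls and 965, 990 and 679 CPM in EPD. Its log2 fold change was 0.19 (SE 0.40, adjusted p = 0.86, edgeR) with Control 2 and 0.00 (SE 0.34, adjusted p = 1) without it. miR-129-5p did not overlap between groups, with 6, 5 and 9 counts in the controls and 13, 14 and 26 counts in EPD (adjusted p = 0.364 and 0.219). The brain list had 5 of 10 negative (median 0.08) with Control 2 and 7 of 11 (median -0.18) without it.

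Of the 9 inflammation miRNAs, edgeR called 0 in 3 against 3 and 1 higher without Control 2, miR-223-3p. In the latter layout 0.888% of all miRNAs tested were called higher. Without Control 2, 3 of the 9 were higher at an unadjusted p under 0.05 (7.99% of all tested) and 4 had EPD higher without overlap (16.9%). miR-155-5p of activated leukocytes measured 1131, 570 and 977 CPM in the controls and 1102, 1058 and 757 CPM in EPD. miR-21-5p measured 52288, 50860 and 56907 CPM in the controls and 41409, 58178 and 41456 CPM in EPD, with a log2 fold change of -0.18 (SE 0.29, adjusted p = 0.821, edgeR) with Control 2 and -0.20 (SE 0.31, adjusted p = 0.749) without it. miR-126a-3p of endothelium measured 9138, 8663 and 11793 CPM against 8978, 14793 and 9577 CPM, and its groups overlapped. miR-34a-5p, a target of p53, measured 281, 658 and 396 CPM in the controls and 404, 917 and 539 CPM in EPD (adjusted p = 0.716 with Control 2 and 0.178 without it). miR-210-3p, induced by hypoxia, measured 247, 333 and 333 CPM in the controls and 371, 348 and 436 CPM in EPD, without overlap (adjusted p = 0.699 and 0.437). let-7a-5p measured 9091, 6256 and 8095 CPM in the controls and 8546, 7117 and 9928 CPM in EPD.

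Across the 17 lists, medians in 3 against 3 ran from -1.76 for muscle and -1.58 for the X-linked cluster to 0.62 for the miR-29 family, with 0.06 over all miRNAs tested. Without Control 2 they ran from -2.24 for muscle to 1.26 for the miR-29 family. The median of the liver list changed sign between the layouts, and so did those of the brain, epithelium and miR-17 lists, which were at most 0.37 in size. The leukocyte list had a median of 0.29 with Control 2 and 0.17 without it, the platelet list -0.17 and -0.10, the inflammation list 0.25 and 0.35, and the miR-30 family 0.13 and 0.34. The let-7 family had 0.18 and 0.01, and the list of hypoxia and p53 targets 0.34 and 0.66. The latter list gained miR-34b-3p (2.56) without Control 2, an arm that passed the filter on low counts through EPD. The muscle, brain, X-linked, Dlk1-Dio3 and miR-29 lists gained arms as well, so their medians cover different members in each layout. When library totals without miR-122-5p replaced TMM, the median of all miRNAs in 3 against 3 moved from 0.06 to -0.22. The let-7, miR-30, miR-17 and brain medians were then negative.

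**Figure D5:**
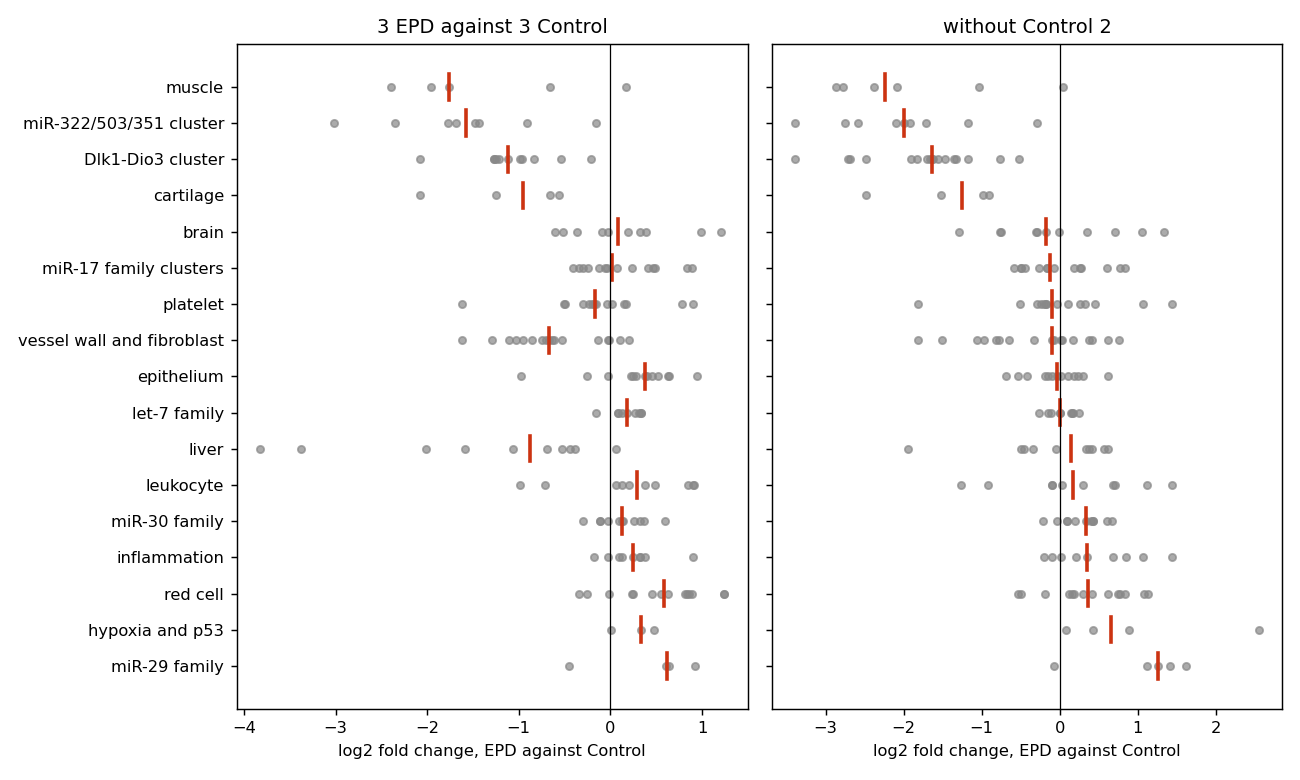
log2 fold change of EPD against Control for each tested miRNA of the 17 lists (grey points) with the median of each list (red bar), with Control 2 on the left and without it on the right. The medians of the muscle, X-linked, Dlk1-Dio3 and cartilage lists were -0.96 or lower in both panels, and that of the liver list moved from -0.88 to 0.14.

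Of the 91 hairpins with both arms tested without Control 2, 27 had both arms negative, 39 both positive and 25 arms of opposite sign. The arms were more than 1 log2 unit apart for 14 of them, miR-322 included. In 3 against 3 both arms were tested for 79 hairpins, of which 28 had both negative, 32 both positive and 19 opposite signs.

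At the limit of detection, miR-328b-3p had 3, 1 and 2 counts in EPD and 0 in all controls. miR-181b-2-3p had 3, 1 and 1 counts and miR-1839-3p 2, 2 and 1 counts in the controls, with 0 in EPD. Such counts are too few for a fold change.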

How the data were processed

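Per the labels' protocols, serum RNA was extracted with a miRNeasy kit, prepared with the QIAseq miRNA kit and sequenced as 50-base single-end Illumina reads. The authors deposited whole-number read counts per mature miRNA. The submitters' processing notes name the build mRatBN7.2. Which aligner, counter and annotation were used, and whether molecular identifiers were collapsed, is not given in the sources used here. PCR reads may then not be independent molecules, so limits from 0 counts cover counting error only. The deposited matrix differed from the single-library tables in 0 values.

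miRNAs were kept with filterByExpr (at least 10 counts, 15 in total), scaled by TMM and tested with edgeR 4.0.16 (robust quasi-likelihood F-test, R 4.3.3), with Benjamini-Hochberg adjustment over all miRNAs tested and a threshold of adjusted p 0.05. The fit was repeated without Control 2, with its own filter and scaling. CPM are printed on the 6-library scale. DESeq2 1.42.0 and limma-voom (limma 3.58.1) were alternatives. Scripts were tested on simulated data.

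miRNAs were named by rule: those with the smallest p in each direction among groups without overlap and with at least 50 CPM (10 in 3 against 3, 8 and up to 12 calls without Control 2), a panel of serum and Parkinson-related miRNAs, up to 4 per list, miRNAs with no count in 1 group, and their other arms and seed relatives. Members, lists and tests were chosen with earlier results of these data known. Libraries of 1 group differed by far more than counting noise (chi-square per degree of freedom 180.7 to 2135.89).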

Additional observations from a re-analysis of the deposited data

How the results depend on the processing

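With 3 libraries a side, the count of calls was 0 under 14 of the 16 alternatives run. DESeq2 gave 7, all lower, and leaving out 1 library gave 0 to 21 calls, with 0 to 18 lower and 0 to 3 higher, the 21 arising without Control 2. Without Control 2, library totals gave 36 calls (35 lower and 1 higher) and DESeq2 41 (28 and 13), while leaving out a further library gave 0 to 65, with 0 to 45 lower and 0 to 20 higher. Where a group fell to 1 control, that library was assumed to vary like the EPD libraries. Of 1004 values of single miRNAs, 958 kept direction and side of the threshold, 24 passed it anew (17 without Control 2 and 7 with DESeq2) and 22 reversed. All reversals were of miRNAs that were not called. With library totals without miR-122-5p, miR-7a-5p went to -0.086, miR-155-5p to -0.155, miR-126a-3p to -0.064, let-7a-5p to -0.147 and miR-23a-3p to -0.246, and miR-23a-3p to -0.069 with all 9 libraries and -0.009 with RLE size factors and with DESeq2. Leaving out 1 library gave ranges of -0.301 to 0.065 for miR-322-5p, -0.775 to 0.618 for miR-192-5p, -0.003 to 0.591 for miR-7a-5p, -0.091 to 0.317 for miR-126a-3p, -0.097 to 0.326 for miR-155-5p, -0.014 to 0.248 for let-7a-5p, -0.209 to 0.319 for miR-23a-3p, -0.563 to 0.20 for miR-125a-5p and -0.126 to 0.029 for miR-125b-5p. The cause of these shifts was not tested. The share of higher miRNAs at an unadjusted p under 0.05 was 25.7% in 3 against 3 and 0% with those totals, and the share among the calls without Control 2 was 14.3%, and 2.78% with library totals. The replicate numbers did not pair the libraries, since same-numbered ones deviated with correlations of -0.026, 0.102 and -0.089. With the replicate block in the edgeR fit, calls numbered 0, and 28 miRNAs against 35 without it reached an unadjusted p under 0.05. Depth limits the Dlk1-Dio3 arms, many of which had under 10 counts in EPD.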
